A study of Mus musculus with 4 samples.

Results

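The cells described here were sinusoidal endothelial cells of the postnatal day 6 (P6) mouse tibia, chosen by their own transcripts: 95 barcodes carried at least 2 unique molecular identifiers (UMIs, tags that count captured transcripts) of Stab2 and at least 2 of Cdh5, no more than 1 of Ptprc, and fewer than 20 of Rgs5 and 50 of Col2a1 per 10000 UMIs. They were 95 of the 14181 barcodes deposited, and 1.15% of the 8256 kept with at least 1600 genes and at most 10% mitochondrial UMIs. Stab2 encodes stabilin-2, a scavenger receptor that takes up hyaluronan, and Cdh5 encodes VE-cadherin, the adhesion molecule of endothelial junctions, while Ptprc, Rgs5 and Col2a1 mark leukocytes, pericytes and chondrocytes. These 5 genes made the choice, so their levels describe the choice and are not findings.

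The library was single-cell RNA sequencing (scRNAseq) of dissociated proximal and distal tibia from a single untreated male, so the cells share an animal, a digestion and a library. The genotype was Col10a1Cre;Rosa26-Tdtomato;Irx3 +/Δ;Irx5 +/-, in which Cre is driven by Col10a1, the collagen X gene of hypertrophic chondrocytes. The paper describes this heterozygote as phenotypically normal. With 1 mouse there was no replicate and no test, p-value or standard error; the intervals below are 95% intervals that cover counting error only, and a gene was called higher or lower when its level differed at least 2-fold. Levels are UMIs summed over a group per 1000000 UMIs of that group (CPM), and log2 ratios were taken with 10 CPM added, which shrinks the ratios of low genes.

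Sinusoids are wide, thin-walled vessels that drain the marrow, and blood cells pass through their walls into the circulation. Their lining clears macromolecules and particles from the blood by receptor-mediated endocytosis, and it carries adhesion molecules and ligands that haematopoietic cells use. In growing long bones they are distinguished from arterioles and from the capillaries near the growth plate, known as type H vessels, which are rich in Pecam1 and Emcn.

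The comparison group was 669 endothelial cells that met the same limits but had 0 Stab2 UMIs, and 42 further cells had 1 Stab2 UMI and entered neither group. Depth was alike: the sinusoidal cells held 3756 to 57517 UMIs, the median cell having 9741 UMIs and 3145 genes, and the median Stab2-negative cell had 8956 UMIs and 3008 genes. In total the sinusoidal cells held 1347120 UMIs, so 3 UMIs over the group, taken as the floor for a count of 0, correspond to 2.23 CPM. Stab2 lay at 425 CPM in them (391 to 462), and from 0.715 to 14.2 UMIs per 10000 in single cells, with a median of 4.55.

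The label is set beside markers that the choice did not use. Their list was chosen with earlier results of these data known. Flt4 was given with Stab2 and Cdh5 as a marker of these cells. The values below therefore describe the cells and do not test the label. Flt4, the receptor for VEGF-C, was at 338 CPM (307 to 370) in 91 of 95 cells and at 122 CPM in the Stab2-negative cells, a log2 ratio of 1.40. Of 19 sinusoidal markers found in the gene matrix, Stab2 among them, 12 reached 50 CPM in either group outside the genes of the choice. Of these 12, 11 were at least 2-fold higher, with a median log2 ratio of 1.68. Besides Stab2, those left out were Fcgr2b, Lyve1, Dnase1l3, Gpr182, Clec1a and Oit3, which stayed below 50 CPM in each group. However, 4 of the 12 (Mrc1, Adamts5, Il1r1 and Csf1) reached 50 CPM only in the sinusoidal cells and could differ only upward. By a minimum added after the values had been seen, of the 8 that reached 50 CPM in the Stab2-negative cells too, each was at least 2-fold higher, compared with 2.49% of all genes that did so. Csf1, a macrophage growth factor and the gene within 2-fold, was at 86.1 against 48.9 CPM. Several markers known best from liver sinusoids were at or near 0: Fcgr2b, an Fc receptor, had 0 UMIs, Lyve1, a hyaluronan receptor, had 1 UMI, and Gata4, a transcription factor, had 0 UMIs. The name sinusoidal follows the choice by Stab2, and these values describe the cells so chosen.

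Over all 3521 genes at 50 CPM or more in either endothelial group, outside the genes of the choice, 149 (4.23%) were higher in the sinusoidal cells and 92 (2.61%) were lower. The median log2 ratio over these genes was -0.10. The ratios below can be compared with it, and the counts of the lists below with the shares of 4.23% higher and 2.61% lower. Of the 3521 genes, 266 reached 50 CPM only in the sinusoidal cells and could be called only higher, and among the other 3255, 81 (2.49%) were higher; the list counts below share this property. At 4-fold, 31 genes were higher and 25 lower. The plot of gene levels shows the bulk of genes near the diagonal with Fabp4 as the abundant exception.

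**Figure D1:**
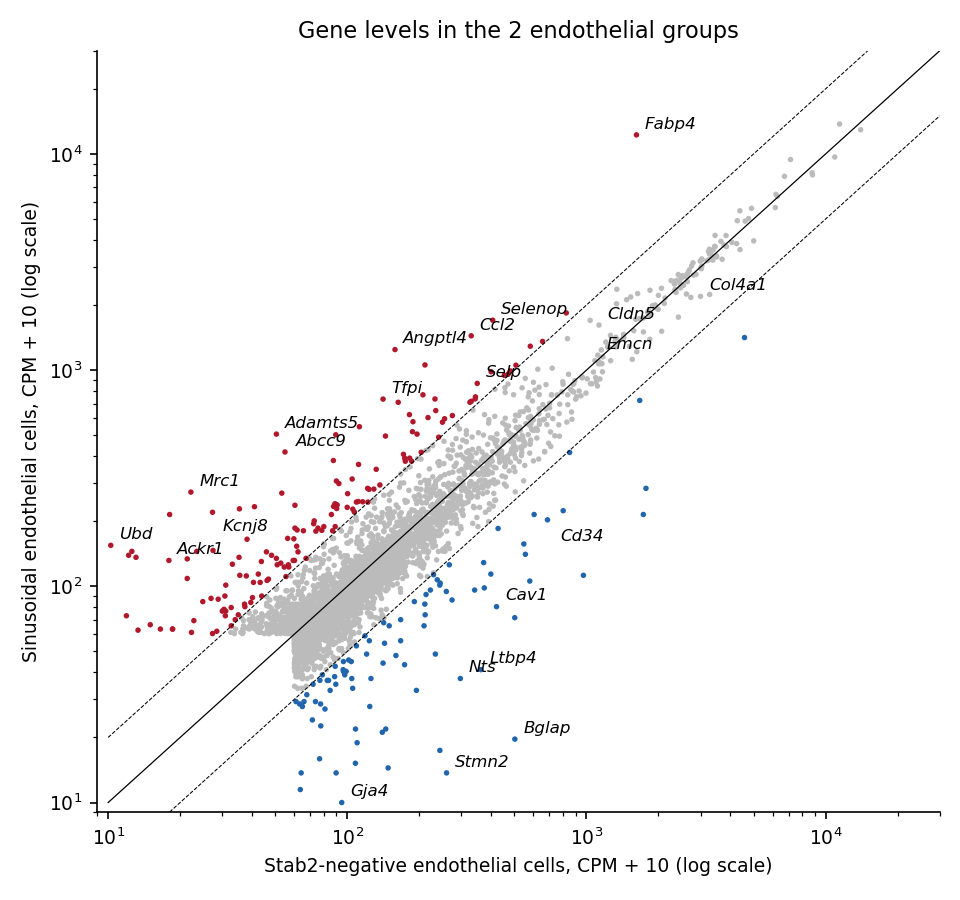
Level of each gene at 50 CPM or more in either group, in Stab2-negative endothelial cells (x axis) and sinusoidal cells (y axis), both as CPM + 10 on log scales; red points are 149 genes at least 2-fold higher and blue points 92 genes at least 2-fold lower, with the solid line marking equal levels and the dashed lines 2-fold. Fabp4 stands apart at 12237 against 1608 CPM, while Emcn, Cldn5 and Col4a1 lie near the diagonal.

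Of 19 pan-endothelial genes tested, 1 was higher and 1 lower, with a median log2 ratio of -0.08, which is near the shares over all genes (4.23% and 2.61%) and so shows nothing particular to these genes. Emcn, the sialomucin endomucin, was at 1163 CPM against 1105 CPM, and Plvap, which forms the diaphragms of fenestrae, at 804 against 850 CPM. Pecam1, the platelet endothelial adhesion molecule, was at 855 against 1044 CPM. The exceptions were Tspan7, a tetraspanin, at 156 against 49.8 CPM, and Cd34, a sialomucin of capillary endothelium, at 193 against 677 CPM. Cd34 had at least 1 UMI in 62 of 95 sinusoidal cells, and its median per cell was 1.32 UMIs per 10000, compared with 6.42 in the Stab2-negative cells.

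Several receptors and proteases of the endocytic route were higher. Of 17 scavenger and endocytosis genes tested, 7 were higher (Stab1, Mrc1, Cd36, Dab2, Ctsl, Ctsb and Lgmn) and 0 were lower, with a median log2 ratio of 0.73. Over all genes, 4.23% were higher. Of the 15 that reached 50 CPM in the Stab2-negative cells too, a minimum added after the values had been seen, 6 were higher, compared with 2.49% of all such genes. Mrc1, the mannose receptor, was at 263 CPM (236 to 292) against 12.2 CPM, or 21.6-fold (17.2 to 27.3). It was found in 82 of 95 sinusoidal cells and in 69 of 669 Stab2-negative cells, with 0 to 16.9 UMIs per 10000 and a median of 2.36. After every cell was thinned to 5000 UMIs, 66.3% of the sinusoidal cells and 7.07% of the Stab2-negative cells held an Mrc1 UMI, compared with 0.113% of 2650 collagen-rich skeletal cells and 40.7% of 209 cells rich in C1q transcripts. Mrc1 thus differed between the endothelial groups at equal depth too, although their single-cell ranges overlapped.

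Stab1, the gene of the related receptor stabilin-1, was at 564 against 240 CPM and present in 94 of 95 cells. Cd36, a receptor for oxidized lipoproteins and fatty acids, was at 492 against 79.5 CPM. Dab2, an adaptor of clathrin-coated pits, was at 586 against 245 CPM. The lysosomal proteases were higher too: Lgmn, legumain, was at 725 against 223 CPM, Ctsl, cathepsin L, at 973 against 389 CPM, and Ctsb, cathepsin B, at 1044 against 497 CPM. Clathrin heavy chain, Cltc, at 472 against 275 CPM, and the lysosomal membrane protein Lamp1, at 320 against 321 CPM, were within 2-fold.

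Selenop, which encodes the plasma selenium carrier selenoprotein P, was at 1692 against 396 CPM and was found in each of the 95 cells, with 2.78 to 47.3 UMIs per 10000 and a median of 16.5. Il6st, the shared receptor chain of the interleukin-6 family, was at 485 against 134 CPM. Adamts5, a protease that cleaves aggrecan and versican, was at 496 CPM (459 to 535) against 40.5 CPM, in 83 cells. The Adamts5 level was 34.2 CPM over the 7109 kept barcodes with 0 Cdh5 UMIs, and 163 CPM in 251 stromal cells rich in Cxcl12.

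Mrc1, Cd36, Stab1, Selenop and the proteases are also genes of macrophages, so macrophage markers are set beside them. In the sinusoidal cells the 10 macrophage markers summed to 41.6 CPM, compared with 58.9 CPM in the Stab2-negative cells, and 5 of them (C1qc, Adgre1, Fcgr1, Mpeg1 and Vsig4) were at 0; the most abundant was Lyz2, at 27.5 CPM. C1qa had 2 UMIs and C1qb 3 UMIs over all 95 cells. Ptprc had 2 UMIs in all, which the choice itself limited. The 7 leukocyte markers summed to 57.9 CPM, with none at 0 and Coro1a the most abundant.

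A group of lipid handling genes was also higher. This list was put together after the values had been seen, so its count is a description: of 12 tested, 10 were higher and 0 lower, with a median log2 ratio of 2.0. Over all genes, 4.23% were higher. Lpl, Lipg and Pparg reached 50 CPM only in the sinusoidal cells and could be called only higher. Fabp4, the fatty acid binding protein of adipocytes and capillary endothelium, was at 12237 CPM (12051 to 12425) against 1608 CPM, 7.61-fold (7.43 to 7.79). It was found in 95 of 95 sinusoidal cells, from 1.97 to 350 UMIs per 10000 with a median of 105. In the Stab2-negative cells it was found in 446 of 669, with a median of 3.30 and a highest value of 268 UMIs per 10000. The ranges of single cells overlapped, with the sinusoidal cells at the upper end. Fabp4 was at 23.2 CPM over the cells without Cdh5 and at 1066 CPM in the Rgs5-rich cells among them.

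Angptl4, a secreted inhibitor of lipoprotein lipase, was at 1234 CPM (1176 to 1295) against 148 CPM and was found in 90 of 95 cells, with a median of 10.0 and a highest value of 53.8 UMIs per 10000. Lipg, endothelial lipase, was at 63.1 against 1.92 CPM in 35 cells. Pparg, the nuclear receptor that drives fat cell genes, was at 51.2 against 12.3 CPM. Apoe, a lipoprotein component, was at 537 against 102 CPM, and the lipid droplet genes Plin2 and Hilpda were at 237 against 101 CPM and 356 against 101 CPM. Gpihbp1, which holds lipoprotein lipase on the capillary surface, differed little, at 630 against 519 CPM. Lpl itself was at 223 against 30.9 CPM, but 5 cells held 58.1% of its 301 UMIs, and Lpl was at 1663 CPM in the stromal reference.

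**Figure D2:**
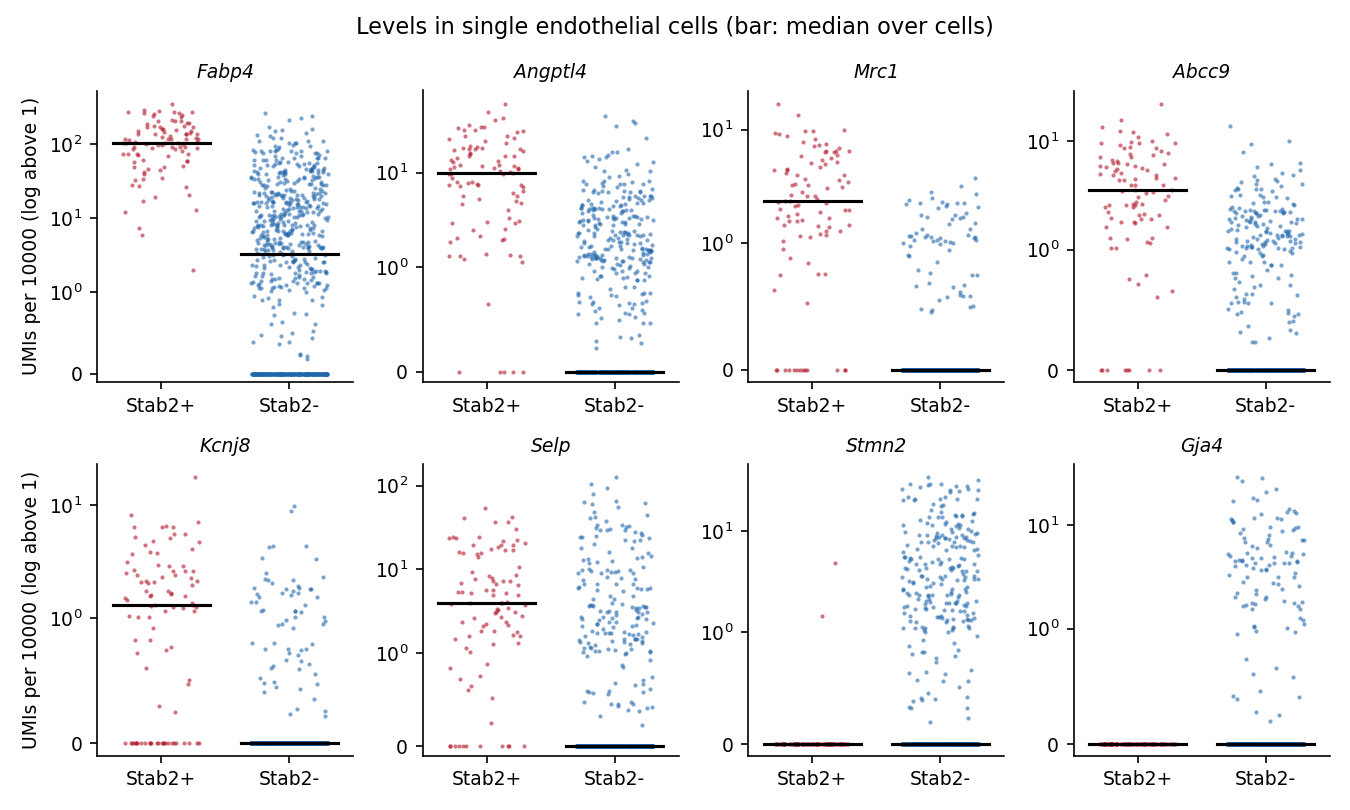
UMIs per 10000 UMIs of each cell (y axes, linear below 1 and logarithmic above) for 8 genes in the 95 sinusoidal cells (Stab2+, red) and the 669 Stab2-negative endothelial cells (Stab2-, blue); points are cells and black bars medians over cells. Fabp4 has a median of 105 in the sinusoidal cells and 3.30 in the others, and Gja4 is at 0 in each of the 95 sinusoidal cells.

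Kcnj8 and Abcc9 were among the 12 genes with the largest ratios. They encode the pore Kir6.1 and the sulphonylurea receptor SUR2 of an ATP-sensitive potassium (KATP) channel, best known from pericytes and vascular smooth muscle, where channel opening relaxes the vessel. Kcnj8 was at 210 CPM (186 to 236) against 17.3 CPM, 12.1-fold (9.8 to 15). Abcc9 was at 408 CPM (375 to 444) against 44.9 CPM, 9.10-fold (7.94 to 10.4). Their counterparts in the channel of pancreatic beta cells, Kcnj11 and Abcc8, had 0 UMIs in either endothelial group.

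Of the 95 sinusoidal cells, 67 held at least 1 UMI of each subunit, 20 of Abcc9 alone, 2 of Kcnj8 alone and 6 of neither. Among the 669 Stab2-negative cells, 45 held both and 465 neither. Per cell, Kcnj8 ran from 0 to 17.8 UMIs per 10000 with a median of 1.32, and Abcc9 from 0 to 22.2 with a median of 3.58. At 5000 UMIs per cell, 55.1% (44.1 to 65.6) of the sinusoidal cells held Kcnj8 and 79.8% (69.9 to 87.6) held Abcc9, compared with 5.39% and 15.7% of the Stab2-negative cells and 0.189% and 2.60% of the skeletal cells.

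Since Kcnj8 is also a pericyte marker, the 8 pericyte and smooth muscle markers were examined: they summed to 272 CPM against 75.9 CPM, of which Kcnj8 made 210 CPM, and Myh11, smooth muscle myosin, was at 0. Rgs5, limited by the choice, had 11 UMIs in 4 cells, or 8.17 CPM against 7.05 CPM. Pdgfrb, the pericyte receptor for PDGF-B, was at 19.3 against 7.31 CPM, in 6 cells, and Notch3 was at 19.3 against 5.77 CPM, in 11 cells. In the other direction, the smooth muscle genes Acta2 and Tagln were at 2.23 against 11.3 CPM and 7.42 against 17.4 CPM, and Cspg4 was at 5.94 against 9.49 CPM. In 113 reference cells rich in Rgs5 and without Cdh5, Kcnj8 was at 123 CPM and Abcc9 at 457 CPM, and Rgs5 set the membership of either group, so its level says nothing of how they differ.

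The genes lie next to each other on the minus strand of chromosome 6 (GRCm38), with Kcnj8 at chr6:142564837-142571614 and Abcc9 at chr6:142587862-142702315, 16247 bases apart. Both neighbours were higher in the sinusoidal cells as a group, and whether they varied together from cell to cell was not tested. Their promoters are shown, from 250 bases before to 50 bases after the start, as RefSeq gives them for GRCm38.p6. They cover chr6:142571565-142571864 and chr6:142702225-142702524 and are written 5′ to 3′ on the strand of the gene, with motif matches in capitals:
Kcnj8: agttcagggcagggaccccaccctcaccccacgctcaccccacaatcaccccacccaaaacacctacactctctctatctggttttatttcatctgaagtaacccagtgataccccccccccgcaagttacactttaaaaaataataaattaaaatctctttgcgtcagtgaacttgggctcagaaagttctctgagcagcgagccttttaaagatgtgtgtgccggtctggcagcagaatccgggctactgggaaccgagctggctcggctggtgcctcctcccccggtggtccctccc
Abcc9: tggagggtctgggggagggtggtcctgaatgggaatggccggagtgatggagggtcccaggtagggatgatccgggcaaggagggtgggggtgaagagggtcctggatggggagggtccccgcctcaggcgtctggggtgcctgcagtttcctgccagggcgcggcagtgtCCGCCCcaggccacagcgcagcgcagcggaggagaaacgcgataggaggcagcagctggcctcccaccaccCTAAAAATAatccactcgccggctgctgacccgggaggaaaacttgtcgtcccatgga
Each motif was searched on both strands. The TATA box TATAAA was in 13.6% of all 32851 promoters, the GC box GGGCGG in 35.7%, the ETS core CCGGAA in 14.9% and the MEF2-type CTANNNNTA in 21.0%. Abcc9 held 1 GC box, on the other strand, and 1 MEF2-type match that begins 8 bases before the start; no match lay in the Kcnj8 window. GC content was 53.3% for Kcnj8 and 65.7% for Abcc9, with a median of 52.7% over all promoters.

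Among leukocyte adhesion genes, 12 were tested, of which 3 were higher (Vcam1, Selp and Ackr1) and 3 lower (Cd34, Jam2 and Podxl), with a median log2 ratio of -0.27. Jam2, a junctional adhesion molecule, was within 2-fold in 2 of the 14 alternative settings, at -0.97 and -0.94. Selp, P-selectin, on which leukocytes roll, was at 858 CPM (809 to 909) against 339 CPM. Its single-cell values ran from 0 to 53.8 UMIs per 10000 with a median of 3.94, but the highest Stab2-negative cell reached 125. It was found in 84 of 95 sinusoidal cells and in only 183 of 669 others, so the Stab2-negative Selp came from a minority of cells with high levels.

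Ackr1, the chemokine-binding receptor of venules, was at 122 against 7.95 CPM and was found in 36 cells. The upper limit of its spread was 24.0 UMIs per 10000, while its median was 0, and 12 cells with at least 5 UMIs held 75.6% of its UMIs. Vcam1, the integrin ligand, was at 304 against 94.8 CPM in 67 cells. Icam1 and Sele, the E-selectin gene, were within 2-fold, at 1011 against 709 CPM and 104 against 80.2 CPM. Podxl, podocalyxin, was lower, at 38.6 against 223 CPM.

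Of 10 venous genes tested, 3 were higher (Ackr1, Selp and Lrg1) and 0 lower, with a median of 0.50. Lrg1, a modifier of TGF-beta signalling in endothelium, was at 700 against 153 CPM and found in 91 of 95 cells. Nr2f2, the transcription factor of venous identity, was at 189 against 116 CPM, and Vwf, von Willebrand factor, at 199 against 110 CPM. Ephb4, the venous ephrin receptor, was at 55.7 against 86.6 CPM. The fate genes Nr2f2 and Ephb4 were thus within 2-fold, in opposite directions.

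Coagulation genes included 4 of 11 that were higher (F8, Thbd, Procr and Tfpi) and 1 that was lower (Nos3), with a median log2 ratio of 0.55. Tfpi, the inhibitor of the tissue factor pathway, was at 725 CPM (680 to 771) against 131 CPM, in 93 of 95 cells. F8, coagulation factor VIII, was at 137 against 17.4 CPM in 65 cells. Thbd, thrombomodulin, was at 171 against 76.8 CPM, and Procr, the protein C receptor, at 218 against 95.4 CPM, although Procr was within 2-fold (0.97) with at least 5 Stab2 UMIs. Tfpi2, a related protease inhibitor outside the list, was at 1047 against 201 CPM. Nos3, endothelial nitric oxide synthase, was lower at 18.6 against 67.3 CPM.

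**Figure D3:**
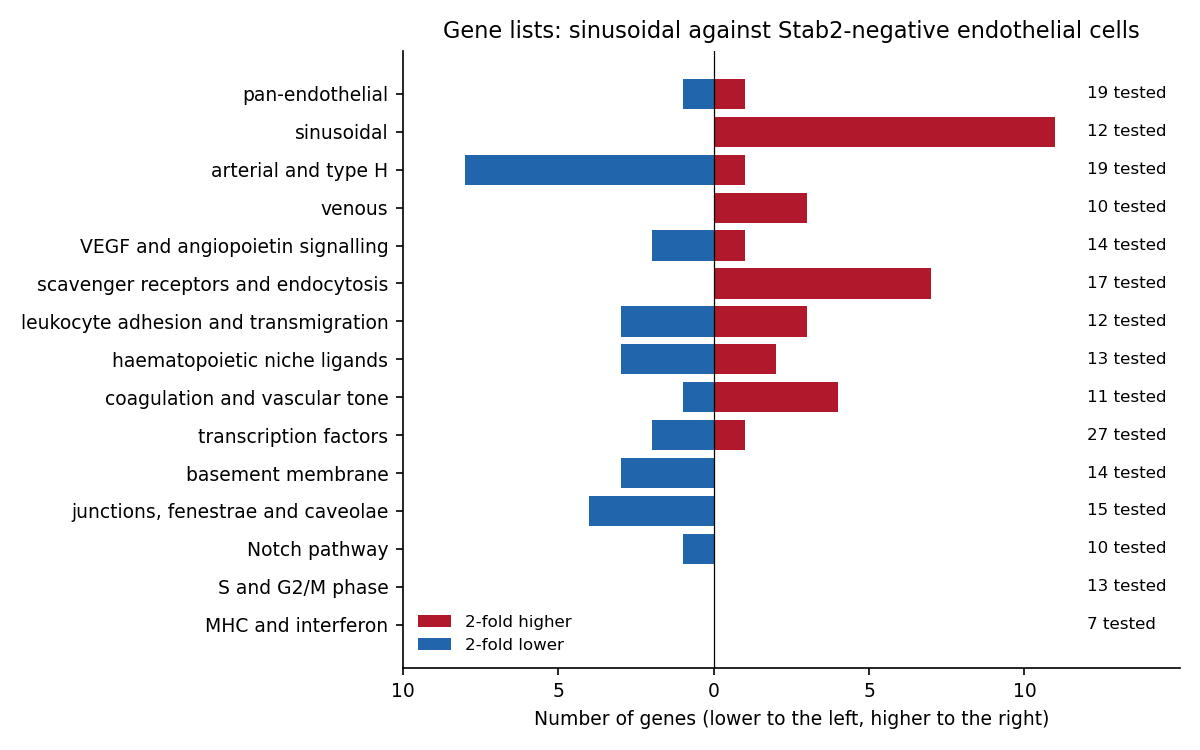
Number of genes (x axis) at least 2-fold lower (blue, to the left) and higher (red, to the right) in sinusoidal than in Stab2-negative endothelial cells for each gene list (y axis), with the number tested at the right. The sinusoidal list has 11 of 12 higher, and the arterial and type H list has 8 of 19 lower.

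Several arterial and type H genes were lower. Of 19 tested, 8 were lower, compared with 2.61% of all genes, and the median log2 ratio was -0.94. The 1 higher gene was Cxcl12, for which 7 sinusoidal cells held 97.6% of the UMIs. Gja4, connexin 37 of arterial endothelium, had 0 UMIs in the 95 sinusoidal cells, against 84.8 CPM in the Stab2-negative cells, and so was at least 38.1-fold lower, with the floor of 3 UMIs taken over the group. Stmn2, a microtubule regulator, was at 3.71 CPM in 2 cells against 250 CPM in 241 of 669 cells. Sema3g, a semaphorin of arterial endothelium, had 2 UMIs, or 1.48 CPM, against 53.6 CPM.

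Further down the list, Efnb2, the arterial ephrin, was at 63.8 against 202 CPM, Unc5b, a netrin receptor, at 14.1 against 61.4 CPM, and Cxcr4, the receptor for CXCL12, at 23.8 against 95.3 CPM. Pgf, placental growth factor, was at 5.94 against 66.6 CPM and Ly6c1 at 86.1 against 213 CPM. Notch1, at 164 against 231 CPM, and Mcam, at 240 against 403 CPM, were within 2-fold. In the Notch list, 1 of 10 tested was lower and 0 were higher, and nothing is read from a count this small. The lower gene was the ligand Jag2, at 3.71 against 54.1 CPM.

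Of 15 genes for junctions, fenestrae and caveolae, 4 were lower (Jam2, Aqp1, Cav1 and Gja4, the last also in the arterial list), 0 were higher and 11 were within 2-fold, with a median log2 ratio of -0.42. Cav1, caveolin-1, the scaffold of caveolae, was at 70.5 CPM (57.1 to 86.2) against 411 CPM, a log2 ratio of -2.39. At 5000 UMIs per cell it was found in 23.6% of the sinusoidal cells and 62.5% of the others. Aqp1, a water channel, was at 86.1 against 331 CPM. Cldn5, the tight junction protein claudin-5, was not among the lower genes, at 1606 against 1118 CPM.

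In the basement membrane list, 3 of 14 were lower (Lamb1, Col15a1 and Col18a1) and 0 higher, with a median log2 ratio of -0.54. Lamb1, a laminin chain at -1.09, came to -1.0 after thinning and -0.99 with size factors, just within 2-fold. Col18a1, which holds endostatin, was at 214 against 789 CPM, and Col15a1 at 104 against 388 CPM. The network collagen Col4a1 was at 2183 against 2988 CPM, found in 95 of 95 cells, and within 2-fold. Outside the lists, the genes with the lowest ratios included Ltbp4, an organizer of elastic fibres, at 31.2 against 352 CPM, Nts, the neuropeptide neurotensin, at 27.5 against 287 CPM, S100a6 at 102 against 961 CPM, and Crip1 at 61.6 against 491 CPM.

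For some genes of the lower list the UMIs were held by few cells. Bglap, the osteocalcin gene, was at 9.65 against 492 CPM, but 8 of the 669 Stab2-negative cells held 97.0% of the 3834 Bglap UMIs in that group. Elane, neutrophil elastase, was at 5.20 against 98.1 CPM, with 6 Stab2-negative cells holding 95% of its UMIs. The 8 osteoblast markers summed to 558 CPM against 4306 CPM, with Col1a2 the most abundant and none at 0 in the sinusoidal cells. Leaving out the 5% of cells highest for each gene, a step added after the values had been seen, brought the log2 ratio of Bglap from -4.67 to -0.25 and that of Col1a1 from -3.01 to -0.48, and turned Elane to 0.02. Without the barcodes that Scrublet marked as doublets, the ratios were -4.59 for Bglap and -2.34 for Elane, and the source of these transcripts was not tested. Among the genes named here, Gja4, Stmn2, Cav1, Cd34 and Ltbp4 stayed more than 2-fold lower without those cells.

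Of 14 ligands, receptors and related genes of VEGF and angiopoietin signalling tested, 1 was higher (Flt4) and 2 were lower (the ligands Pgf and Vegfc), with a median log2 ratio of 0.15. The count of higher genes is near the 4.23% over all genes, so nothing is read from it. Vegfc was within 2-fold with at most 5% mitochondrial UMIs (-0.80) and with at least 5 Stab2 UMIs (-0.85). Kdr, the main VEGF receptor, was at 759 against 486 CPM and was found in 95 of 95 cells, and Flt1 at 783 against 779 CPM. Tek, the angiopoietin receptor, was at 272 against 187 CPM. Flt4 is also a lymphatic gene, and the lymphatic transcription factor Prox1 was at 45.3 against 17.2 CPM and Mmrn1 at 98.7 against 11.4 CPM, in 35 and 58 cells. Pdpn, podoplanin, which lymphatic endothelium carries, had 0 UMIs, with the floor at 2.23 CPM, and Lyve1 had 1 UMI.

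Among 27 transcription factors tested, 1 was higher (Maf) and 2 were lower (Lmo2 and Id1), with a median log2 ratio of -0.02. These counts are near the shares over all genes (4.23% and 2.61%), so nothing particular to the list is read from them. Maf, at 229 against 79.5 CPM, is c-Maf, which liver sinusoidal endothelium also carries. Id1, a target of BMP signalling, was at 44.5 against 133 CPM, and Lmo2 at 55.7 against 140 CPM. Irx3, an Iroquois homeobox factor and one of the genes altered in this mouse, was at 125 CPM (107 to 146) against 59.1 CPM, a log2 ratio of 0.97 that lay between 0.86 and 1.16 over the alternative settings. It was found in 59 of 95 sinusoidal cells and was at 15.7 CPM in the cells without Cdh5; Irx5, its neighbour, was at 17.8 CPM, in 14 cells.

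Niche ligands for haematopoietic cells went both ways, with 2 of 13 higher (Cxcl12 and Csf3), 3 lower (Jag2, Ptn and Pdgfb) and a median of 0.10. Kitl, stem cell factor, was at 179 against 342 CPM, a log2 ratio of -0.90, and was found in 51 of 95 cells. Cxcl12, which holds stem cells in the marrow, was at 759 against 197 CPM, but only 17 sinusoidal cells had a Cxcl12 UMI and 7 cells held 97.6% of them. Of those 7 cells, 5 also held at least 5 UMIs of Mmp13, collagenase 3. In the stromal reference, defined by its Cxcl12, the level was 8091 CPM. Without the 5% highest cells the log2 ratio of Cxcl12 was 0.16 instead of 1.89, so the higher level rested on a few cells.

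The 7 marrow stromal markers summed to 1253 CPM against 601 CPM, with Cxcl12 the most abundant and none at 0. Lepr, the leptin receptor, was more evenly spread, at 68.3 against 20.5 CPM in 38 cells, while Adipoq, adiponectin, was at 2.23 CPM. The part of stromal RNA in these levels was not tested.

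Chemokine and cytokine genes, gathered after the values were seen, were higher for 8 of 9 tested, with a median log2 ratio of 2.13. The count is a description of genes so picked, and over all genes 4.23% were higher. Ubd and Cxcl9 reached 50 CPM only in the sinusoidal cells and could be called only higher. For Cxcl1 and Cxcl2, which attract neutrophils, the ratios of 1.06 and 1.12 fell under 2-fold in 4 and 3 of the 14 alternative settings, to as low as 0.65 and 0.84. Ccl2, the monocyte attractant, was at 1431 CPM (1368 to 1496) against 320 CPM. Only 49 of the 95 cells had a Ccl2 UMI, the median was 0.921 UMIs per 10000 and the highest cell 193, and 35 cells with at least 10 UMIs held 97.3% of them. Csf3, the granulocyte growth factor G-CSF, was at 372 against 77.5 CPM in 47 cells, and 35 cells held UMIs of both Ccl2 and Csf3. Ubd, an interferon-inducible ubiquitin-like modifier, had the largest log2 ratio among the leading genes, 3.92, at 145 against 0.257 CPM, but in 28 cells, of which 5 held 65.6% of its UMIs. Its ratio rested in part on those few cells: without the 5% of cells highest for each gene it was 2.90, below the 4.41 of Mrc1 and the 4.48 of Clca3a1, and with Ptprc at 0 UMIs it was 3.56, below their 3.58 and 3.57. Cxcl9, a T cell attractant, was at 129 against 2.18 CPM with 2 cells holding 81.6% of its UMIs. Its log2 ratio of 3.51 came to 2.65 with at least 5 Stab2 UMIs, and was as low as 1.09 over the alternative settings.

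The remaining genes with large ratios were Clca3a1, a chloride channel accessory protein, at 205 against 8.08 CPM in 65 cells, Rgs4, a brake on G protein signalling, at 135 against 2.57 CPM in 45 cells, and Adgrg6, an adhesion G protein-coupled receptor, at 126 against 3.08 CPM in 47 cells. Each was present in a larger number of cells than Cxcl9 or Ubd. Rgs4 was also at 190.7 CPM in the Rgs5-rich cells, while Clca3a1 and Adgrg6 were at 0.815 and 5.70 CPM there.

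Some genes changed by degrees across the Stab2 threshold and others did not. The 20 cells just inside it, with 2 Stab2 UMIs, had Fabp4 at 5823 CPM, Mrc1 at 190 CPM, Kcnj8 at 133 CPM and Abcc9 at 194 CPM. The 42 cells just outside, with 1 Stab2 UMI, had 4147, 98.2, 98.2 and 152 CPM for the same genes in that order. Flt4 was at 284 CPM inside and 280 CPM outside. Cells with 1 Stab2 UMI therefore lay between the groups for these 4 genes and near the sinusoidal level for Flt4. For Selp they were at 340 CPM, near the 339 CPM of the Stab2-negative cells. For Cav1 they were at 113 CPM, compared with 411 CPM in the Stab2-negative cells and 91.1 CPM in cells with 2 to 4 Stab2 UMIs. Whether the 42 cells are a mixture was not tested.

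Within the sinusoidal cells, 48 had 2 to 4 Stab2 UMIs and 47 had 5 or more, with median depths of 8121 and 13194 UMIs. Fabp4 was at 8640 CPM in the former and 14392 CPM in the latter, Abcc9 at 269 and 491 CPM, Adamts5 at 321 and 601 CPM, and Angptl4 at 826 and 1479 CPM. Mrc1 was at 254 (212 to 302) and 268 CPM (234 to 306), with overlapping counting intervals, and Emcn at 1076 and 1216 CPM. In the other direction Cd34 was at 289 and 135 CPM, and Stmn2 at 9.91 and 0 CPM. The classes differed in depth as well, and the part of depth in these values was not tested.

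**Figure D4:**
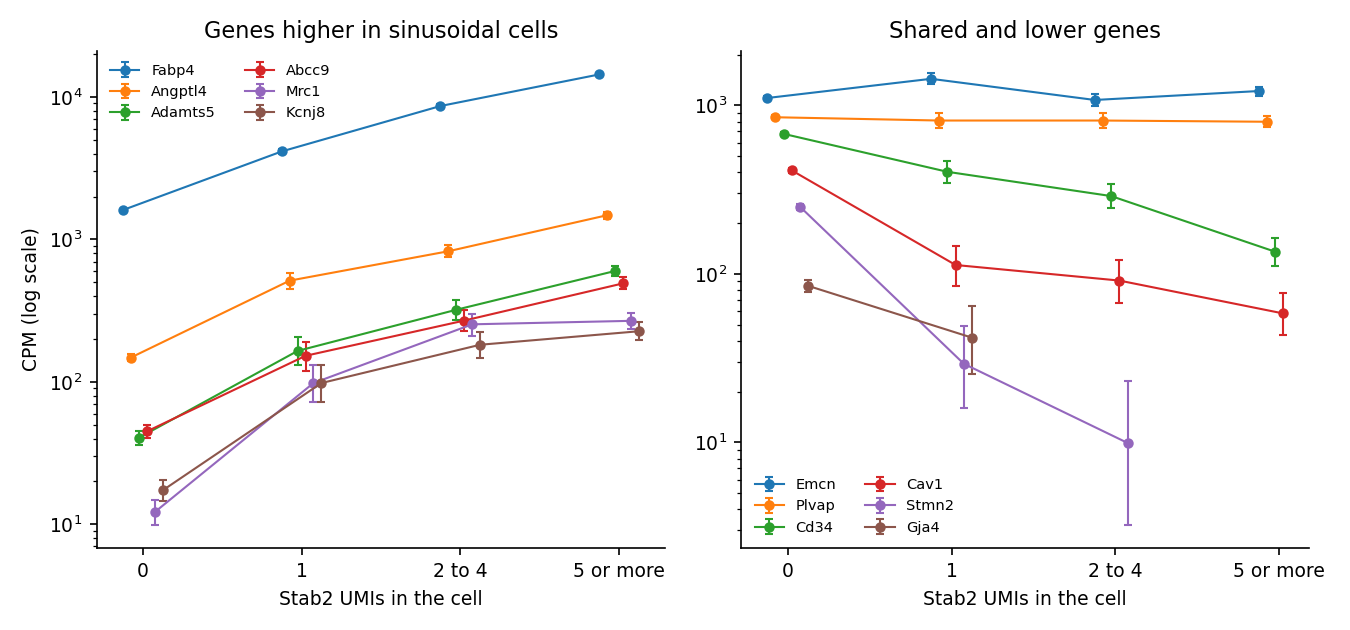
Level in CPM (y axes, log scale) of 12 genes in endothelial cells with 0 (669 cells), 1 (42), 2 to 4 (48) and 5 or more (47) Stab2 UMIs (x axis); bars are exact 95% Poisson intervals, and levels of 0 are not drawn (Gja4 in the upper pair of classes, Stmn2 in the last). Fabp4 goes from 1608 to 14392 CPM across the classes and Cd34 from 677 to 135 CPM, while Plvap lies between 799 and 850 CPM.

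Against the 7109 kept barcodes with 0 Cdh5 UMIs, 986 of 3777 genes tested (26.1%) were higher and 538 (14.2%) lower. With median-of-ratios size factors in place of totals, the counts were 843 and 759, so the share of higher genes among the calls went from 64.7% to 52.6%. By log2 ratio the 12 leading genes were Fabp4, Cldn5, Emcn, Tfpi2, Selp, Kdr, Plvap, Flt1, Gpihbp1, Apold1, Lrg1 and Ptprb. For Fabp4 the ratio was 8.53, and for Selp 6.24, at 858 against 1.51 CPM. Most of these genes mark endothelium as a whole, and 5 of the 12 (Fabp4, Tfpi2, Selp, Apold1 and Lrg1) were also 2-fold higher than in Stab2-negative endothelium.

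**Figure D5:**
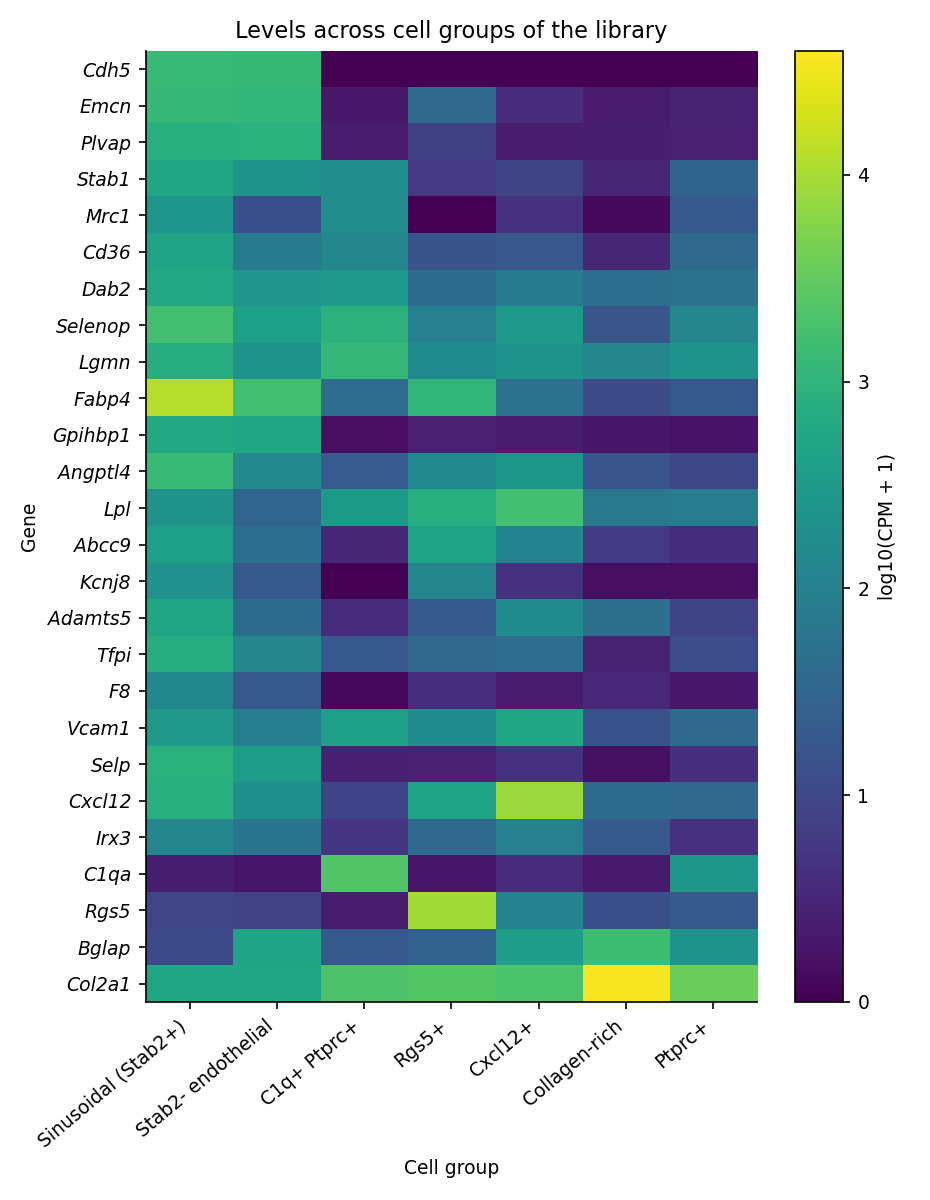
Level of 26 genes (rows) in the sinusoidal cells, the Stab2-negative endothelial cells and 5 reference groups without Cdh5 UMIs (columns), coloured by log10(CPM + 1). Cdh5 is at 0 outside the endothelial groups by definition, C1qa is near 0 in the sinusoidal cells, and Kcnj8 and Abcc9 are high in the sinusoidal and the Rgs5-rich cells.

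Transcripts typical of other cell types were found in either endothelial group. Col2a1, limited by the choice, was at 533 CPM against 518 CPM and present in 95 of 95 cells, and Hbb-bs, a haemoglobin gene, was found in 93 of 95. The 6 erythroid markers summed to 13952 against 12174 CPM, with none at 0 and Hbb-bs the most abundant, and the 7 chondrocyte markers to 812 against 839 CPM, with none at 0 and Col2a1 the most abundant. These sums were alike in both endothelial groups, and the 10 haemoglobin-rich sinusoidal cells with at least 10 Hbb-bs UMIs held 96.5% of its UMIs. The 7 neutrophil markers summed to 1171 against 1294 CPM, with none at 0 and S100a9 the most abundant; 1 sinusoidal cell held 86.1% of the S100a9 UMIs. The 7 B lineage markers summed to 149 against 300 CPM, with Ebf1, a transcription factor, the most abundant at 101 against 206 CPM (log2 ratio -0.96), while Cd79a, a B cell receptor component, was at 13.4 against 20.3 CPM. The 5 osteoclast markers summed to 41.6 against 47.3 CPM, with Ocstamp at 0. The 6 megakaryocyte markers summed to 102 against 47.5 CPM; Pf4, a platelet chemokine and the most abundant, was at 96.5 against 36.2 CPM in 49 cells, while the platelet glycoprotein genes Gp9 and Gp1bb were at 0. The part of such transcripts in the comparisons was not tested.

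The reporter of the hypertrophic chondrocyte lineage was read from WPRE, a viral element in the tdTomato transcript. The sinusoidal cells held 98 WPRE UMIs in 47 cells, with 7 at most in a cell, and 0 of 95 exceeded the 14 UMIs that the study takes as its limit for hypertrophic chondrocyte-derived cells, and the limit set by 3 counts of 95, used for any count of 0, is 3.16%. At 72.7 CPM, the WPRE level was close to the 68.5 CPM of the Stab2-negative cells and below the 151 CPM of the collagen-rich skeletal cells. It was 54.8 CPM in the Ptprc+ and 46.5 CPM in the C1q-rich cells, and 178 CPM in the Rgs5-rich and 479 CPM in the Cxcl12-rich cells. The part of background in the WPRE UMIs was not tested. No tdTomato UMI was found in the 95 cells.

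Transcripts of the cell cycle were found in a share of sinusoidal cells close to that of the Stab2-negative cells. By at least 2 UMIs of Top2a and Mki67 together, 26 of 95 cells (27.4%, 18.7 to 37.5, Clopper-Pearson) were marked, compared with 26.0% (22.7 to 29.5) of the Stab2-negative cells. At 5000 UMIs per cell the shares were 15.7% of 89 cells (8.88 to 25.0) and 19.9% of 594 cells (16.7 to 23.3), with 6 and 75 shallower cells left out, and the intervals overlapped. At that depth the marked share was 12.1% (10.9 to 13.4) in the collagen-rich skeletal cells and 15.5% in the Cxcl12-rich cells. It was 19.6% in the Rgs5-rich and 29.7% in the C1q-rich cells. These groups may hold cycling cells of their own, so none of them measures the background of the library. The part of background in the marks was not tested, and the marks alone are not read as cycling. Of 13 S and G2/M phase genes tested, 0 were higher and 0 lower at 2-fold, which is near the shares over all genes.

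The 26 marked cells were deeper, with a median of 17960.5 UMIs against 8347 for the other 69. Ackr1 was at 32.9 CPM in them and 195 CPM in the others, Selp at 459 and 1187 CPM, and Vcam1 at 158 and 424 CPM. Fabp4 was at 9449 and 14533 CPM. Mrc1 was at 173 and 337 CPM, Flt4 at 258 and 403 CPM, Abcc9 at 329 and 474 CPM and Angptl4 at 1018 and 1413 CPM. Kcnj8 was in the other direction, at 237 and 188 CPM. Stab2, at 294 and 533 CPM, was set in part by the choice, since a minimum of 2 UMIs is a higher level in a shallower cell. The part of depth in the other values was not tested.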

How the data were processed

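The values deposited by the authors are raw UMI counts for each gene in each barcode. Cell Ranger 3.1.0 produced them from a reference of mm10 extended by tdTomato and WPRE; the submitters' processing notes also name Seurat 3. The annotation release was not given in the sources used. The 4 samples of P6 are 1 library that was counted together. A deposited count matrix of 98 exogenous sequences over 6794880 barcodes was joined by barcode. Of 31053 gene identifiers, 30934 matched GENCODE M21 (GRCm38), which gave coordinates. P56 was not analysed here.

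The minimum of 1600 genes is the study's, and the other limits were set here. UMIs were summed per group and scaled to CPM with exact Poisson intervals. Shares have Clopper-Pearson intervals, and all are at 95% for counting error only. Genes at 50 CPM or more in either group were compared, without the 5 genes of the choice. Reference groups had 0 Cdh5 UMIs: Ptprc+ cells had at least 2 Ptprc UMIs and 0 of Stab2, C1q-rich cells had at least 2 Ptprc and 10 C1qa, C1qb and C1qc UMIs, skeletal cells no Ptprc and at least 50 Col1a1 and Col2a1 UMIs per 10000, and Rgs5-rich and Cxcl12-rich cells at least 20 of that gene per 10000. The last pair was added after values had been seen. Thinning was to 5000 UMIs without replacement. Scrublet (scanpy 1.11.5, expected rate 10%, seed 1) marked 622 of 14181 barcodes (4.39%), among them 5 sinusoidal cells and 30 Stab2-negative cells, which were kept. Python 3.11.15, numpy 2.4.6, scipy 1.17.1, pandas 2.3.3 and matplotlib 3.10.9 were used, and the ratio step was tested on simulated data.

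Named genes are those of the lists, the 12 with the largest log2 ratio in each direction with at least 50 UMIs over both groups, and the 12 leading against cells without Cdh5. Tfpi2 and Apold1 came from the last set, and Mmp13 was named after its values were seen. The cells and the lists were chosen with earlier results of these data known.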

Additional observations from a re-analysis of the deposited data

How the results depend on the processing

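No paired analysis was possible because the 4 samples are 1 library, and no replicate could be left out for the same reason. The number of sinusoidal cells was 37 with at most 5% mitochondrial UMIs and 47 with at least 5 Stab2 UMIs. The number of genes lower than in Stab2-negative endothelium was 140 with at most 5% mitochondrial UMIs and 172 without a minimum level, and 1042 genes were lower than in cells without Cdh5 without that minimum. At 4-fold, 31 genes were higher and 25 lower than in Stab2-negative endothelium, and 415 higher and 236 lower than in cells without Cdh5. The share of cells marked by Top2a and Mki67 was 15.7% after thinning. Size factors brought the median log2 ratio from -0.10 to 0.000295 in the endothelial comparison, and from 0.18 to -0.09 against cells without Cdh5.

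Of 86 named genes with a 2-fold difference, without Stab2 itself, 70 kept it in each of the 14 settings tried and 16 did not. Leaving out the 5% of cells highest for each gene, chosen after seeing the data, turned 5 genes: Bglap2 to 0.13, Elane to 0.0152, Prtn3 to 0.33, Mpo to 0.0048 and Ibsp to 0.0252. Of 149 higher and 92 lower genes, 142 and 73 were also called without those cells. The other genes that lost 2-fold somewhere were Bglap, Bglap3, Col1a1, Col1a2, Cxcl12, Cxcl1, Cxcl2, Vegfc, Jam2, Procr and Lamb1. With 95 cells, a gene at 0 can be present at up to 2.23 CPM.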

Other observations

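Genes of antigen presentation and the interferon response were compared in sinusoidal and Stab2-negative endothelium: of 7 tested, 0 were higher and 0 lower, with a median log2 ratio of 0.10. With 4.23% of all genes higher and 2.61% lower, counts of 0 in lists this short show nothing particular to their genes, here and for the lists that follow. H2-D1, a class I heavy chain, was at 520 against 511 CPM, and Ifitm3, an antiviral membrane protein, at 1229 against 1144 CPM. The class II genes H2-Ab1 and H2-Eb1 had 0 UMIs in the 95 sinusoidal cells. Immediate early genes, which dissociation is known to raise, were gathered after the values had been seen: of 10 tested, 0 were higher and 0 lower, with a median of -0.04, Fos being at 431 against 520 CPM and Ier3 at 2356 against 1329 CPM. Of the angiocrine BMP and Wnt factors, 2 of 14 reached 50 CPM and 0 of these differed 2-fold; Wnt2, Wnt9b and Hgf, known from liver endothelium, had 0 UMIs.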
